A study of Glycine max with 23 samples.

Results

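Small RNAs of soybean stem were compared with those of soybean leaf. Both stem libraries and all 6 leaf libraries were taken by organ from the labels, which makes 8 of the 23 small RNA libraries of the series. All plants were Glycine max cv. Williams 82, an inbred cultivar, grown at a field station in Beijing with no treatment. The stems were collected at germination and at the trefoil stage, when the first compound leaves of 3 leaflets are out. The leaves were a new leaf at germination, a new and an old leaf at the trefoil stage, a new and an old leaf during flower bud differentiation, and a senescent leaf. Each tissue at each stage is 1 library, and the labels do not say how many plants went into it. The spread behind every p-value is therefore that between stages and ages of an organ, not between replicate plants. For p-values by limma it was taken over the libraries of all organs in the series, unless another fit is named.

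MicroRNAs (miRNAs) are small RNAs cut as a pair of strands, the 5p and 3p arms, from a hairpin in a longer transcript. A loaded strand guides an Argonaute protein to transcripts that pair with it, and in plants those transcripts are often cleaved. Many of the conserved plant miRNAs act on transcription factors of growth: miR319 on the TCP factors that restrain cell division in leaf blades, miR166 on the class III homeodomain factors of vascular tissue and of the upper leaf face, miR167 on auxin response factors, and miR172 on AP2-like factors of the juvenile to adult transition. Legumes also make miRNAs such as miR2109 that act on disease resistance genes of the NBS-LRR class.

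The level of each sequence is given in TP5M, tags per 5000000 sequenced tags, as the authors scaled it. Sequences without a miRNA name carry a locus number such as M4051-3p. They are placed in a family where they share 18 bases in a row with a named member or where their hairpin overlaps a named one. Such a link carries no statement about targets, and the roles given are those of the main product of a family, which its other strand may lack. The table holds small RNAs only, so the organ labels could not be checked against marker transcripts. In whole organs, fewer cells of a type and less RNA per cell cannot be told apart.

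The sequences on which the results turn are printed 5′ to 3′ with T for U as in the deposited table, and capitals mark the seed, bases 2 to 8. The miR319 sequences are shown because that family held the most sequences higher in stem. The sequence miR319a shares its 20 bases with the start of the longer M4051-3p, and miR319n has another seed.
M4051-3p: tTGGACTGaagggagctccctt
miR319a: tTGGACTGaagggagctccc
miR319g: tTGGACTGaagggagctccttc
M0711-3p: tGGACTGAagggagctccttct
miR319n: tTTGGACCgaagggagcccct

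The miR167 sequences are shown because 5 members share 1 seed and their first 20 bases, and 4 of them were lower in stem while miR167a did not pass the test.
miR167c: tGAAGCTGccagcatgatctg
miR167g: tGAAGCTGccagcatgatctga
M4031-5p: tGAAGCTGccagcatgatctta
miR167e: tGAAGCTGccagcatgatctt
miR167a: tGAAGCTGccagcatgatcta

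The miR172 sequences are shown because both arms were lower in stem. The first pair has the seed of the main product and the second pair comes from the opposite arm.
miR172a: aGAATCTTgatgatgctgcat
miR172k: tGAATCTTgatgatgctgcat
M4097-5p: gTAGCATCatcaagattcaca
miR172h-5p: gCAGCAGCatcaagattcaca

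The miR166 sequences are shown because miR166h-3p and miR166u carry the letters of miR166a-3p shifted, with a different start and so a different seed. The longest run of bases that miR166h-3p shares with miR166a-3p is 19, and miR166u shares 18.
miR166a-3p: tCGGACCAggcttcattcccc
miR166h-3p: tCTCGGACcaggcttcattcc
miR166u: tCTCGGACcaggcttcattc

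The remaining sequences shown are members of other families that differed. In miR394, the main product miR394a-5p stands beside miR394b-3p, from the opposite arm. M6352-3p comes from a hairpin inside that of miR394a-5p and shares at most 5 bases in a row with either. In miR1523, both sequences come from overlapping hairpins, and miR1523a is M0781-5p without its first base.
miR394a-5p: tTGGCATTctgtccacctcc
miR394b-3p: aGGTGGGCatactgtcaact
M6352-3p: aGCTCTGTtggctacactttg
gso-miR2109: tGCGAGTGtcttcgcctctga
M1663-3p: gGAGGCGTagatactcacacc
M0781-5p: tATGGGATaaatgtgagctca
miR1523a: aTGGGATAaatgtgagctca
miR4414: aGCTGCTGactcgttggctc
M4039-5p: aGCTGCTGactcgttggttcg
miR171m: tTGAGCCGcgtcaatatctca

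In units of 1e6 tags, the trefoil stem library held 5.50 and the germination stem library 5.91, against 4.16 to 6.46 in the leaves. A single read was worth 0.741 to 1.38 TP5M over the 23 libraries, so 3 reads, the limit that a count of 0 allows, came to 2.22 to 4.14 TP5M. These limits cover counting error only. The deposited table took in 14.5% and 9.86% of the tags of the germination and trefoil stem, and 4.61% to 15.2% of those of the leaves. In 6 libraries (the old trefoil leaf, both leaves of flower bud differentiation and 3 pods), 28 sequences were found in at least 3 of them and in no other library. Neither stem is among them, so the calls were also made without those 3 leaves, and their part in the results was not tested beyond that. Some sequences are listed at 0 in a library beside high levels elsewhere with no low values between, and for these the value of each library is given and no mean.

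By limma, the calls between stem and leaf came largely from a few families. The counts depended on the fit, and DESeq2 called 27 sequences higher in stem and 96 lower. In simulated data the limma fit recovered 8.5% of 2-fold changes, so a sequence without a call need not be alike in both organs. Of 595 sequences tested, 30 were higher in stem (5.04%) and 11 were lower (1.85%), by limma at an adjusted p below 0.05. These are 41 in either direction (6.89%), and 106 had an unadjusted p below 0.05. The higher sequences came from 10 families, led by miR319 with 8 of its 14 tested sequences and miR2109 with 4 of 4. Of those 8, both arms of M1889 and of M4039 were placed in miR319 by hairpin overlap alone. Of the miR2109 sequences, 3 share a seed and M1663-3p is the opposite arm, so the counts are not of independent members. The lower ones came from 3 families: 5 of 10 miR172 sequences, 4 of 7 miR167 sequences and 1 of 18 miR171 sequences, with 1 sequence of no family. The median log2 difference over all 595 was -0.01. Without any overlap between groups, both stems lay above all leaves for 44 sequences (7.39%) and below all leaves for 30 (5.04%). This held for 28 of the 30 called higher and for 11 of the 11 called lower. Of the 41 calls, 13 were also made without the germination stem, 21 without the trefoil stem, and 28 without the 3 leaves that share the 28 sequences. The 13 calls lost without those leaves had adjusted p-values from 0.0502 to 0.164. They were the higher calls of miR156g, miR4414, M0408-5p, M0151-3p, M4039-3p, miR1535b, M2876-5p, miR2109 and M1663-5p and the lower calls of miR172b-5p, M4097-5p, M1974-3p and miR167e. Another 8 sequences gained a call there, among them miR396b-5p and miR319n. With the leaves limited to those of germination and the trefoil stage, the stages of the stems, 27 of the 41 calls were also made. Among the calls lost there were those of miR171m, M4097-5p, miR4414, miR166m and M2487-3p. A fit to the 8 stem and leaf libraries alone called 5 higher and 4 lower, and a fit to the 5 libraries of germination and the trefoil stage with a stage term called 0.

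**Figure D1:**
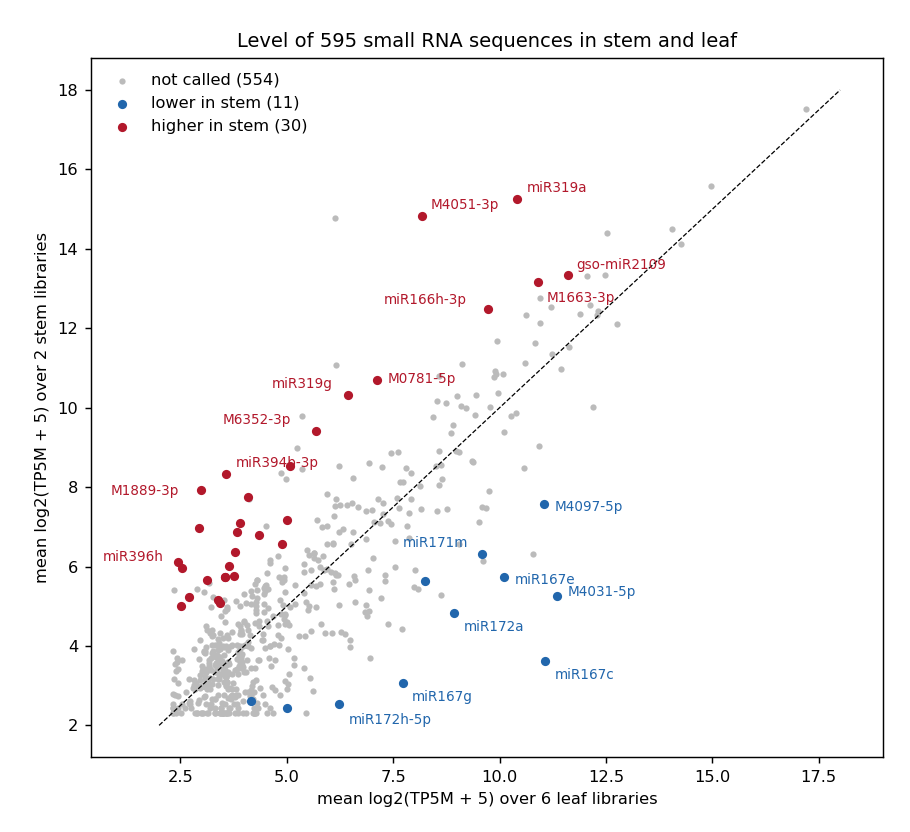
Mean log2(TP5M + 5) of each of 595 sequences over the 6 leaf libraries (x axis) and the 2 stem libraries (y axis), with the 30 sequences called higher in stem in red, the 11 called lower in blue and equality as a dashed line. The miR319 sequences miR319a and M4051-3p lie far above the line near the top, and miR167c and M4031-5p far below it on the right.

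The miR319 family had the largest increase in stem among the family sums. Its summed level was 105960 TP5M in the germination stem and 109601 TP5M in the trefoil stem. In the leaves it ran from 1110 TP5M in the senescent leaf to 9748 TP5M in the new trefoil leaf. These sums include miR319d, miR319f and miR319h, which are listed at 0 in some libraries with no low values elsewhere. The stem sums exceeded every leaf by more than the whole range of the leaves, with a log2 difference of 5.00 ± 0.80 (SE; limma adjusted p = 0.000543). The stems also held the top 2 places among all 23 libraries. As a share of the signal in the table, the family took 14.6% and 22.2% in the stems against 0.212% to 3.20% in the leaves. Both stem shares lay above every leaf share, which gives an exact permutation p of 0.0714 (two-sided), the smallest that 2 against 6 libraries allow. The family was taken up for its difference in these same libraries, so that p is no separate support.

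Single miR319 sequences showed where the sum came from. M4051-3p (chr11:1374014-1374204, plus strand, as the table places its hairpin) stood at 35793 TP5M in the germination stem and 23547 TP5M in the trefoil stem. The leaves ran from 5.15 TP5M (senescent) over a median of 487 to 947 TP5M (new leaf at germination). The groups did not overlap, and the stem mean was 56.4-fold the leaf mean (log2 6.65 ± 1.30, limma adjusted p = 0.00238). Without the germination stem the log2 difference was 6.35 and the adjusted p 0.0737. Outside stem and leaf the highest library, at florescence, had 9372 TP5M, so both stems were the top libraries of the 23.

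The 20 base miR319a, the main product of the family, was listed at 39125 TP5M in the germination stem and 39247 TP5M in the trefoil stem. Leaf levels ran from 69.0 TP5M (senescent) over a median of 1962 to 4616 TP5M (new trefoil leaf). Every leaf lay below both stems (log2 4.84 ± 1.04, limma adjusted p = 0.00614), and the adjusted p was 0.0966 without the germination stem and 0.0575 without the trefoil stem. The less abundant miR319g, from a hairpin on chromosome 2, had 1834 and 886 TP5M in the germination and trefoil stem against 9.26 to 184 TP5M in the leaves (log2 3.89 ± 0.75, limma adjusted p = 0.00238), and its adjusted p was 0.0982 without the germination stem. M0711-3p, cut from the same place with a start 1 base later, had 107 and 55.5 TP5M against 3.09 to 16.6 TP5M (log2 2.59 ± 0.39, limma adjusted p = 0.000386).

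The hairpin of miR319a also gave a second pair of strands. M1889-3p and M1889-5p lie inside it (chr5:40832138-40832240, plus strand). M1889-3p had 308 TP5M in the germination stem and 187 TP5M in the trefoil stem, against 0 to 13.1 TP5M in the leaves, 2 of which were at 0 (log2 4.95 ± 0.80, limma adjusted p = 0.000563). M1889-5p had 93.8 and 43.7 TP5M against a single leaf library above 0, the new leaf at germination with 3.49 TP5M (log2 3.67 ± 0.62, limma adjusted p = 0.000725). Its adjusted p was 0.0549 without the germination stem. M4039-5p and M4039-3p, both arms of 1 hairpin that overlaps a miR319 hairpin on chromosome 10, were higher in stem as well. M4039-3p had 34.7 and 102 TP5M against 0 to 24.01 TP5M (limma adjusted p = 0.0471), and was not called without either stem or any of the new leaf at germination, the old leaves and the senescent leaf. M4039-5p shares its first 17 bases and its seed with miR4414, not with miR319.

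Not every miR319 sequence differed. miR319n, whose seed is not that of miR319a, had 14.4 and 40.0 TP5M in the germination and trefoil stem against 10.8 to 829.4 TP5M in the leaves, overlapping groups with a log2 difference of -2.04 (limma adjusted p = 0.252). It was called lower without the 3 leaves that share the 28 sequences (log2 -2.17, limma adjusted p = 0.0373). miR319h had 28111 and 27561 TP5M in the stems, and in leaves 871 TP5M (new leaf, germination), 873 (new leaf, trefoil), 248 (old leaf, trefoil), 19.6 (senescent) and 0 in both leaves of flower bud differentiation. It did not pass the test (limma adjusted p = 0.0616). miR319d was listed at 0 in the germination stem and at 17273 TP5M in the trefoil stem. These sequences were picked after their values were seen.

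**Figure D2:**
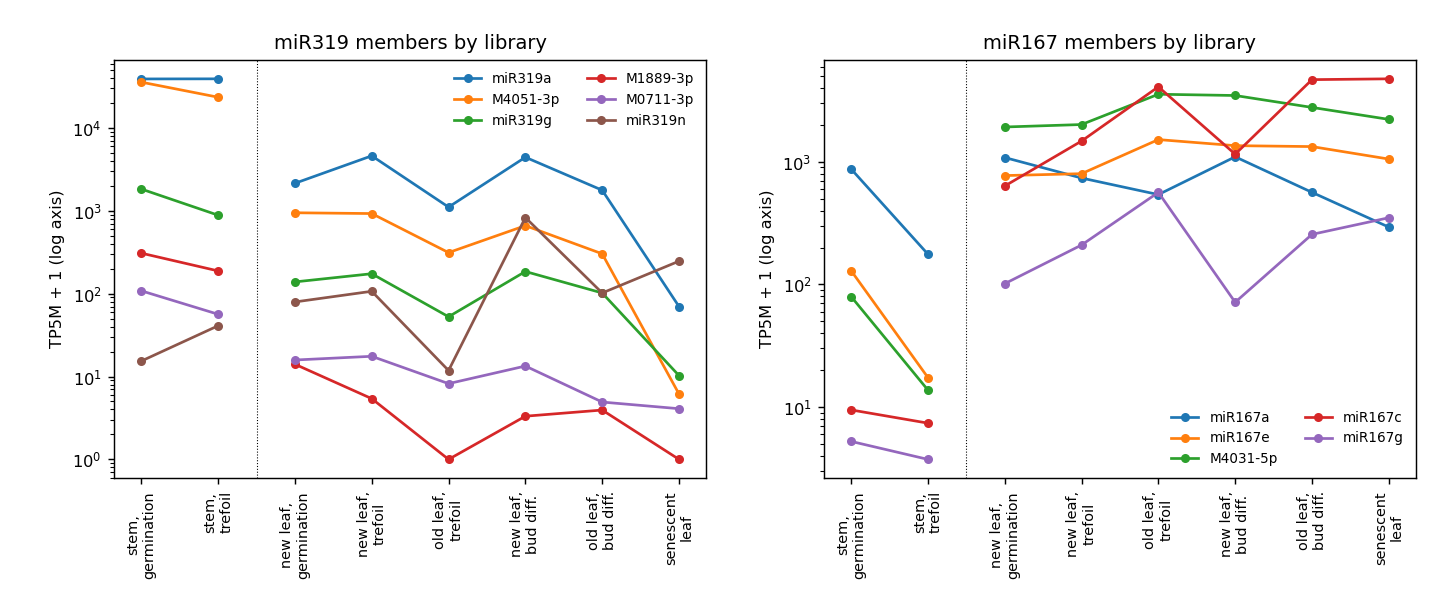
Level (TP5M + 1, log axis) of 6 miR319 and 5 miR167 sequences in each stem and leaf library, stems left of the dotted line. Of the miR319 sequences, all but miR319n are highest in the stems, and of the miR167 sequences miR167a keeps overlapping values while the other 4 drop in stem.

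Among the meristem and organ shape families (miR164, miR165, miR166, miR170, miR171, miR319, miR394 and miR396), 15 of 80 tested sequences were higher in stem and 1 was lower, with a median log2 difference of 0.63 against -0.01 over all tested. That is 20% of the list called in either direction, against 6.89% of all sequences tested. The 15 comprise the 8 miR319 sequences above with 3 of miR394, 3 of miR166 and 1 of miR396. Of those 8, both arms of M1889 and of M4039 are counted in miR319 by hairpin overlap alone.

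In miR394, whose main product acts on an F-box gene of the shoot meristem in Arabidopsis, the main product did not pass the test and 3 other sequences rose. miR394b-3p had 194 TP5M in the germination stem and 509 TP5M in the trefoil stem. The leaves ran from 0 (old trefoil leaf and senescent leaf) over a median of 7.42 to 25.4 TP5M (new trefoil leaf). Both stems lay above every leaf (log2 4.74 ± 0.68, limma adjusted p = 0.000283). M6352-3p (chr17:41783754-41783898, plus strand) had 558 and 809 TP5M in the stems against 2.40 to 404 TP5M (log2 3.71 ± 0.99, limma adjusted p = 0.0289), with an adjusted p of 0.158 without the germination stem and 0.175 without the trefoil stem. Its partner M6352-5p was higher too (log2 3.21 ± 0.59, limma adjusted p = 0.00148). Both come from a hairpin inside that of miR394a-5p, and M6352-3p is not the partner strand of miR394a-5p. The main product miR394a-5p had 115 and 431 TP5M against 5.15 to 235 TP5M, and these groups overlapped (log2 1.88 ± 0.99, limma adjusted p = 0.318). The difference between the arms was not tested.

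In miR166, the shifted sequences rose and the abundant main form did not pass the test. miR166h-3p had 8541 TP5M in the germination stem and 3827 TP5M in the trefoil stem, and the leaves ran from 548 over a median of 911 to 1131 TP5M (old leaf of flower bud differentiation). The groups did not overlap (log2 2.75 ± 0.47, limma adjusted p = 0.000725), with an adjusted p of 0.0724 without the germination stem. An old cotyledon of the trefoil stage stood higher than both stems, at 10027 TP5M. The 20 base miR166u had 532 and 247 TP5M against 14.4 to 76.1 TP5M (log2 3.45 ± 0.57, limma adjusted p = 0.000601).

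miR166a-3p, read from 10 entries and the main form of the family, had 56807 and 42540 TP5M in the germination and trefoil stem against 22232 to 56322 TP5M in the leaves. The new leaf of flower bud differentiation reached the stem level (log2 0.63 ± 0.32, limma adjusted p = 0.31). As a share of the summed miR166 signal, miR166h-3p took 10.3% and 6.51% in the stems against 0.983% to 2.51% in the leaves, with an exact permutation p of 0.0714 (two-sided), the smallest possible. This share was chosen after the values were seen, and miR166h-3p was called in the same libraries, so that p is no separate support. The opposite arm miR166h-5p had 380 and 177 TP5M against 118 to 2623 TP5M, with no call. Outside stem and leaf, miR166m reached 141 TP5M, at florescence. It was listed at 136 and 105 TP5M in the stems, at 61.3 TP5M in the old trefoil leaf and at 0 in the other 5 leaves. It was called higher (log2 4.01 ± 1.17, limma adjusted p = 0.0471), and the call was not made without either stem (adjusted p = 0.373 without the germination stem and 0.16 without the trefoil stem) or without any of the 5 leaves at 0.

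miR396h, a member of the family that acts on growth regulating factors, lacks the first base of miR396a-5p. It had 87.1 and 37.3 TP5M in the germination and trefoil stem and was at 0 in all leaves but the new trefoil leaf, with 7.72 TP5M. It was called higher (log2 3.42 ± 0.53, limma adjusted p = 0.000467). An old cotyledon of the trefoil stage stood above both stems, at 130 TP5M. The abundant miR396b-5p had 45591 TP5M in the germination stem and 10322 TP5M in the trefoil stem against 1529 to 23271 TP5M in the leaves, with no call (log2 1.88 ± 0.87, limma adjusted p = 0.258). Without the 3 leaves that share the 28 sequences, miR396b-5p passed the test (log2 2.94, limma adjusted p = 0.0198).

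The single sequence of this group that fell was miR171m, of the family that acts on GRAS factors of the meristem. It had 71.0 TP5M in the germination stem and 78.2 TP5M in the trefoil stem, and the leaves ran from 435 over a median of 771 to 1722 TP5M. The stems lay below every leaf and close to each other (log2 -3.27 ± 0.77, limma adjusted p = 0.0132), and ranked last among the 23 libraries. With leaves of germination and the trefoil stage only, miR171m was not called. The adjusted p was 0.13 without the germination stem and 0.0727 without the trefoil stem. The sum of the miR171 family had the same order, with 905 and 1034 TP5M in the stems against 1699 to 14733 TP5M in the leaves, but did not pass the test (log2 -2.09 ± 0.76, limma adjusted p = 0.103).

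Among the family sums called lower, miR167 had the larger log2 decrease in stem, and miR172 the larger ratio of means. Of the auxin families (miR160, miR167, miR390 and miR393), 0 of 25 tested sequences were higher in stem and 4 were lower, all of miR167, with a median log2 difference of -0.92 against -0.01 over all tested. That is 16% of the list called in either direction, against 6.89% of all sequences tested. The miR167 family sum was 1100 TP5M in the germination stem and 218 TP5M in the trefoil stem, and 4525 to 10350 TP5M in the leaves (log2 -3.88 ± 1.00, limma adjusted p = 0.0174). With leaves of germination and the trefoil stage only, this sum was not called. It was not called without the trefoil stem (log2 -2.72, adjusted p = 0.367) or without the 3 leaves that share the 28 sequences (log2 -3.57, adjusted p = 0.0673).

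miR167c (chr7:39778512-39778886, plus strand, the first of its 3 entries) had 8.45 TP5M in the germination stem and 6.37 TP5M in the trefoil stem. Leaf levels ran from 634 TP5M (new leaf at germination) over a median of 2788 to 4761 TP5M (senescent). The leaf mean was 378-fold the stem mean (log2 -7.45 ± 0.79, limma adjusted p = 9.31e-06). The stems ranked 22 and 23 of the 23 libraries. The 1 base longer miR167g ran alongside at 4.23 and 2.73 TP5M against 70.5 to 562 TP5M (log2 -4.64 ± 0.65, limma adjusted p = 0.000283).

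M4031-5p had 78.6 TP5M in the germination stem and 12.7 TP5M in the trefoil stem against 1925 to 3563 TP5M in the leaves. The germination stem was the higher of the stems and still below every leaf (log2 -6.07 ± 1.24, limma adjusted p = 0.00361). Its adjusted p was 0.0917 without the trefoil stem. miR167e, 1 base shorter, had 128 and 16.4 TP5M against 772 to 1519 TP5M (log2 -4.37 ± 1.21, limma adjusted p = 0.034), with an adjusted p of 0.0724 without the germination stem, 0.369 without the trefoil stem, 0.0551 without the old leaf of flower bud differentiation and 0.113 without the 3 leaves that share the 28 sequences. Both were far higher in developing seeds of about 6 weeks, at 65351 TP5M for M4031-5p and 34908 TP5M for miR167e.

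miR167a differs from these 4 only after the shared first 20 bases. It had 874 TP5M in the germination stem and 176 TP5M in the trefoil stem, and the leaves ran from 292 over a median of 650.0 to 1099 TP5M. The groups overlapped (log2 -0.73 ± 0.75, limma adjusted p = 0.638). It made up 79.5% and 80.4% of the summed miR167 signal in the germination and trefoil stem, against 3.36% (senescent) to 23.96% (new leaf at germination) in the leaves. The exact permutation p of that share was 0.0714 (two-sided), the smallest possible, and the share was chosen after the values were seen. The other 4 sequences were called lower in the same libraries, so that p is no separate support. How reads of such near-identical sequences were assigned is not given in the sources used here.

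miR172 fell on both arms. Its family sum was 159 TP5M in the germination stem and 416 TP5M in the trefoil stem. The leaves ran from 768 TP5M (new leaf at germination) to 11593 TP5M (old leaf of flower bud differentiation). All leaves lay above both stems (log2 -3.61 ± 0.82, limma adjusted p = 0.00797). The adjusted p was 0.218 without the germination stem.

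miR172a, a main product, had 13.5 and 39.1 TP5M in the germination and trefoil stem, and the leaves ran from 114 over a median of 542 to 1214 TP5M (log2 -4.10 ± 0.73, limma adjusted p = 0.00123). Its adjusted p was 0.0737 without the germination stem. Among the leaves, the lowest miR172a value was at germination, the trefoil leaves had 312 and 397 TP5M, and the leaves of flower bud differentiation had 1087 and 1214 TP5M. The most abundant sequence of the family was M4097-5p, from the opposite arm, with 109 and 315 TP5M in the stems against 559 to 8364 TP5M in the leaves (log2 -3.46 ± 0.85, limma adjusted p = 0.0171). Its adjusted p was 0.373 without the germination stem and 0.0588 without the 3 leaves that share the 28 sequences. miR172k and miR172h-5p reached at most 1.69 TP5M in a stem, under the 3 read limit, against lowest leaf values of 5.23 and 7.85 TP5M. Neither was called without either stem, with adjusted p-values from 0.0758 to 0.191. miR172b-5p was also called lower (limma adjusted p = 0.0431) and lost that call without either stem and without any leaf of the trefoil or flower bud differentiation stage.

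The other phase change family, miR156, which acts on SPL factors and is known for high levels in juvenile shoots, gave 2 called sequences of 23, both higher in stem. The phase change list as a whole (miR156, miR157 and miR172) thus had 2 of 33 tested sequences higher and 5 lower, with a median log2 difference of 0.33 against -0.01 over all tested. That is 21.2% of the list called in either direction, against 6.89% of all sequences tested. miR156g had 85.4 and 27.3 TP5M in the germination and trefoil stem against 0.77 to 16.6 TP5M in the leaves (log2 2.00 ± 0.53, limma adjusted p = 0.0276), with an adjusted p of 0.545 without the germination stem. M2487-3p, whose hairpin overlaps one of miR156, had 251 and 48.2 TP5M, and the old trefoil leaf with 93.7 TP5M stood between the stems (limma adjusted p = 0.0431, and 0.609 without the germination stem). It was not called either without any 1 of the 3 new leaves or the senescent leaf. miR156a was listed at 6271 TP5M in the germination stem, at 0 in the trefoil stem and in the new trefoil leaf, and at 866 to 8443 TP5M in the other 5 leaves.

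The regulators of disease resistance genes (miR482, miR1507, miR1510, miR2109 and miR2118) had 4 of 30 tested sequences higher in stem and 0 lower, all 4 of miR2109, with a median log2 difference of 0.35 against -0.01 over all tested. That is 13.3% of the list called in either direction, against 6.89% of all sequences tested. gso-miR2109, named from the wild soybean Glycine soja, had 10985 TP5M in the germination stem and 9934 TP5M in the trefoil stem. The leaves ran from 1289 TP5M (senescent) over a median of 3709 to 4419 TP5M. The stems were the top 2 of the 23 libraries (log2 1.76 ± 0.45, limma adjusted p = 0.0218), and the adjusted p was 0.217 without the germination stem and 0.0967 without the trefoil stem. M1663-3p, the opposite arm, had 13602 and 6241 TP5M against 1404 to 2889 TP5M (log2 2.27 ± 0.44, limma adjusted p = 0.00238), with an adjusted p of 0.135 without the germination stem. Its partner M1663-5p had 102 and 79.1 TP5M against 7.21 to 41.9 TP5M (limma adjusted p = 0.034) and was not called without either stem. The 20 base miR2109 had 54.1 and 16.4 TP5M against 2.06 to 13.2 TP5M (limma adjusted p = 0.0471), and was not called without the germination stem or without any of the new leaf at germination, the old leaves and the senescent leaf.

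Within the same list, the abundant miR1507a had 25585 and 21331 TP5M in the germination and trefoil stem against 9147 to 27474 TP5M in the leaves (log2 0.46 ± 0.35, limma adjusted p = 0.494). miR2118a-5p had 5618 and 3484 TP5M in the stems, inside a leaf range of 1859 to 54308 TP5M, with no call (limma adjusted p = 0.739). M3452-5p, of miR1507, had 59.2 and 72.8 TP5M against 76.9 to 5772 TP5M, with no overlap and no call (log2 -3.47 ± 1.24, limma adjusted p = 0.115).

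Several families of no list rose in stem. M0781-5p of miR1523 (chr2:12253295-12253398, minus strand) had 1074 TP5M in the germination stem and 2586 TP5M in the trefoil stem, and the leaves ran from 50.4 TP5M (senescent) over a median of 139 to 340.3 TP5M (old leaf of flower bud differentiation). The highest library outside stem and leaf had 311 TP5M, so the stems stood apart from the other 21 (log2 3.59 ± 0.70, limma adjusted p = 0.00238). Its adjusted p was 0.0728 without the trefoil stem. miR1523a, from the same place, had 19.4 and 53.7 TP5M against 0 to 4.90 TP5M (log2 2.53 ± 0.40, limma adjusted p = 0.000559).

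miR4414 had 16.9 and 112 TP5M in the germination and trefoil stem against 0 to 16.6 TP5M in the leaves (log2 2.53 ± 0.63, limma adjusted p = 0.0171). The new trefoil leaf almost reached the germination stem, and the adjusted p was 0.414 without the trefoil stem. M4039-5p, with the same seed but counted in miR319 above, had 111 and 401 TP5M against 0 to 43.4 TP5M (log2 3.68 ± 0.84, limma adjusted p = 0.0106), and its adjusted p was 0.175 without the trefoil stem. Both sequences were higher in the leaf bud than in any stem, at 127 TP5M for miR4414 and 461 TP5M for M4039-5p. M1694-3p, whose hairpin overlaps miR4397, had 207 and 92.8 TP5M against 7.21 to 54.2 TP5M (limma adjusted p = 0.0143, and 0.373 without the germination stem), and the root had 229 TP5M. miR1535b had 159 and 69.1 TP5M against 3.87 to 53.5 TP5M (limma adjusted p = 0.0477) and was not called without either stem or any of the 3 new leaves. The cotyledon at germination stood above both stems, at 237 TP5M.

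Of the 222 tested sequences with no family, 4 were higher in stem and 1 was lower. Over all sequences tested, 5.04% were higher and 1.85% lower. M0151-3p and M0408-5p are reverse complements of each other and have the same value in every library, so they are 1 measurement listed on both strands. They had 31.3 and 72.8 TP5M in the germination and trefoil stem against 0 to 20.9 TP5M in the leaves (limma adjusted p = 0.0492). M1713-5p had 25.4 and 32.7 TP5M against 0 to 12.4 TP5M (limma adjusted p = 0.0253). All 3 lost their call without either stem, and the reverse complement pair also without any of 4 leaves (new at germination, old at the trefoil stage, old of flower bud differentiation, senescent). M2876-5p rested on 1 library, with 148 TP5M in the germination stem, 1.82 TP5M in the trefoil stem and 0 to 3.31 TP5M in the leaves. Its log2 difference was 2.50 with both stems and 0.26 without the germination stem (limma adjusted p = 0.0492 and 0.904), and it was not called without any 1 of the 6 leaves. M1974-3p fell, with 2.54 and 0 TP5M against 4.12 to 21.0 TP5M (limma adjusted p = 0.034), and was not called without either stem or without the new trefoil leaf or the old leaf of flower bud differentiation.

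**Figure D3:**
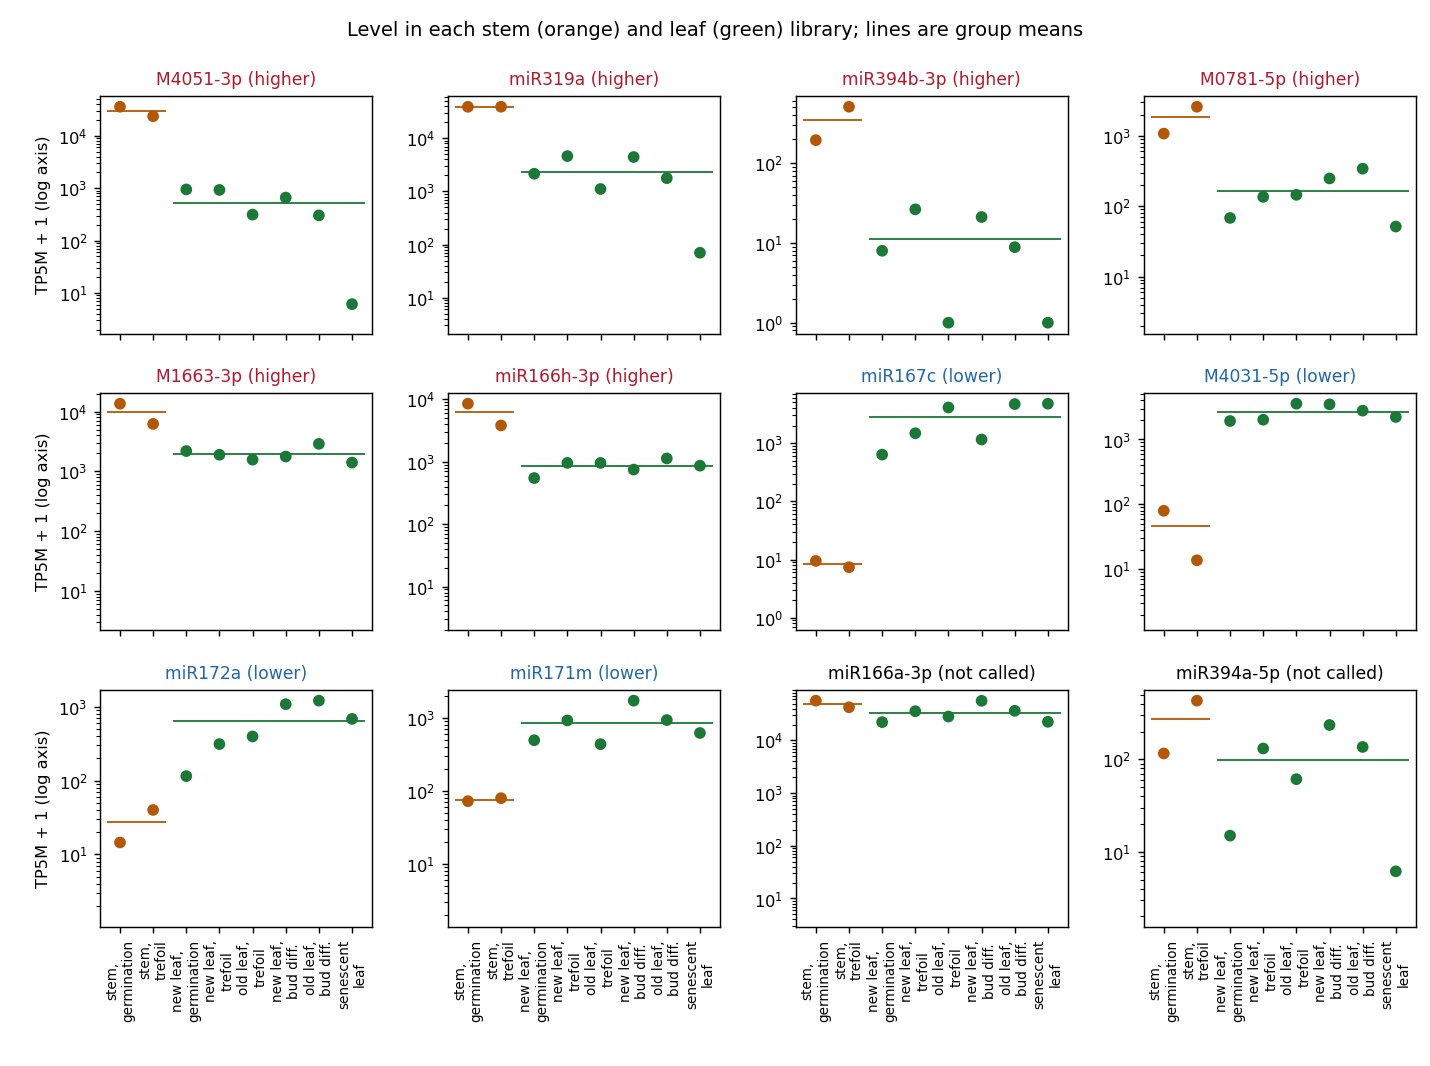
Level (TP5M + 1, log axis) of 12 sequences in each of the 2 stem (orange) and 6 leaf (green) libraries, with lines at the group means. In the panels called higher or lower the stem and leaf points do not overlap, while those of miR166a-3p and miR394a-5p do.

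Summed by family, 7 of 103 families were higher in stem (6.8%) and 2 were lower (1.94%), which is 9 in either direction (8.74%). Both stems lay above all leaves for 9 family sums (8.74%) and below all leaves for 7 (6.8%). Beside miR319, miR167 and miR172, the family sums that passed were miR1523 (log2 3.60), miR4414 (2.60), miR1535 (2.44), miR4397 (2.15), miR2109 (1.98) and miR5763 (1.32), all higher. The 2 miR4414 stem sums, 28.7 and 183 TP5M, overlapped the leaves, of which the new trefoil leaf had 32.0 TP5M. Over all organs, miR319 and miR1523 sums were highest in the 2 stems among the 23 libraries, and so were those of miR2109. The lowest miR167 sum of all was that of the trefoil stem. The germination stem, at 1100 TP5M, stood above the root (479 TP5M) and the pods of 2 and 3 weeks (682 and 561 TP5M). By contrast, the miR172 sum was lower than in either stem in 3 libraries. These were the root (116 TP5M), the cotyledon at germination (75.6 TP5M) and the seeds of about 10 weeks (72.6 TP5M). Without the germination stem, the sums of miR172, miR1535, miR2109, miR4397 and miR5763 lost their call, and without the trefoil stem those of miR167, miR1523, miR1535, miR4414 and miR5763. Their lowest and highest adjusted p in those fits were 0.0574 and 0.536. Leaving out single leaves also ended the call of miR1535 (new leaf at germination or at the trefoil stage), of miR4414 (old trefoil leaf, old leaf of flower bud differentiation or senescent leaf) and of miR5763 (new leaf at germination, new or old trefoil leaf). Without the 3 leaves that share the 28 sequences, the sums of miR167, miR4414 and miR5763 lost their call (adjusted p = 0.0673, 0.0673 and 0.087), and 7 sums gained one. Of these, the sum of miR394 was called higher (log2 4.00, limma adjusted p = 0.00543), as were those of miR166 (0.96) and miR159 (0.87), both with an adjusted p of 0.0494. The other 4 were miR1516, miR5034, miR5679 and miR5767. With leaves of germination and the trefoil stage only, the sums of miR167 and miR4414 lost their call.

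**Figure D4:**
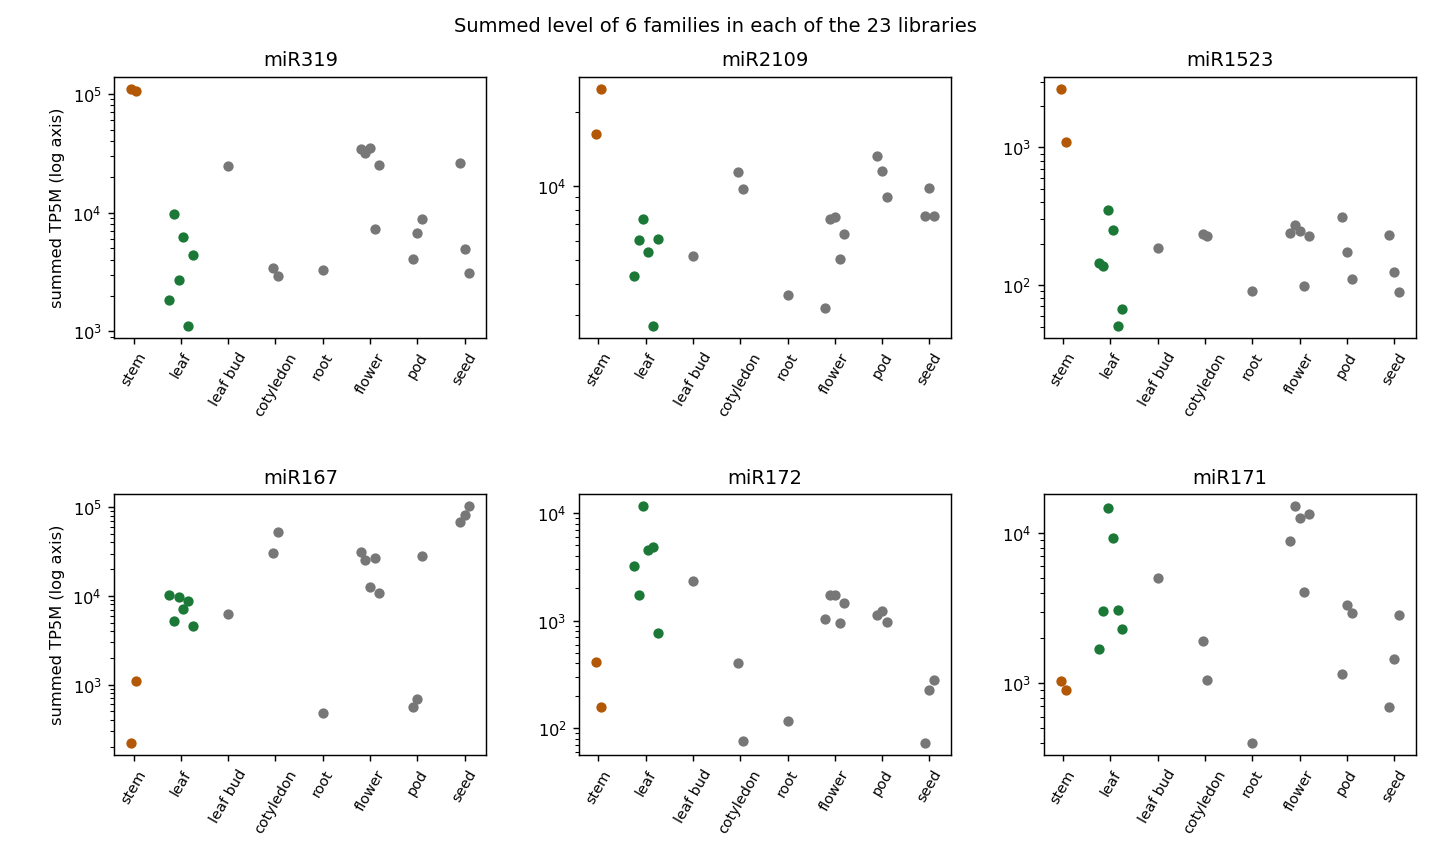
Summed level (TP5M, log axis) of 6 families in each of the 23 libraries, by organ, with stems in orange and leaves in green. The stems are the highest points for miR319, miR2109 and miR1523, while for miR167, miR172 and miR171 they lie below all 6 leaves.

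Most of the abundant miRNAs had overlapping levels in stem and leaf. The most abundant of all, miR159a-3p, of the family that acts on GAMYB factors, had 227896 and 154759 TP5M in the germination and trefoil stem against 89406 to 233712 TP5M in the leaves (log2 0.33 ± 0.33, limma adjusted p = 0.63). The growth MYB list (miR159, miR828 and miR858) had 0 of 10 sequences called, with 2 at an unadjusted p below 0.05 and 1 called by edgeR. Its second member by level, M2670-3p, had 222 and 118 TP5M against 187 to 2356 TP5M. miR168a, which acts on the transcript of ARGONAUTE1, had 21510 and 14914 TP5M against 4998 to 60558 TP5M (limma adjusted p = 0.956). The small RNA machinery list (miR162, miR168 and miR403) had 0 of 10 called, with 0 at an unadjusted p below 0.05 and 0 by edgeR. M0479-3p, of miR168, had 1264 and 345 TP5M against 202 to 5945 TP5M.

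The nutrient list (miR169, miR395, miR399, miR827 and miR2111) had 0 of 49 called by limma, 0 by edgeR and 0 at an unadjusted p below 0.05. Its leading member miR169a, which acts on NF-YA factors, had 4235 and 408 TP5M in the germination and trefoil stem against 6.18 to 4692 TP5M. miR169s had 3146 and 418 TP5M against 15.4 to 1287 TP5M. The copper and lignin list (miR397, miR398, miR408, miR857 and miR2119) had 0 of 20 called by limma and 0 by edgeR, with 3 at an unadjusted p below 0.05. miR398c, which acts on copper superoxide dismutase transcripts, had 1099 and 241 TP5M against 103 to 17319 TP5M. M3014-5p, of miR397, had 2036 and 1560 TP5M against 29.4 to 3955 TP5M. The other legume families had 0 of 26 called by limma, with 3 at an unadjusted p below 0.05, 1 call by edgeR and 1 with TMM scaling. Among them gso-miR3522a had 7748 and 4822 TP5M against 260.2 to 36538 TP5M, and miR1509a had 15705 and 6793 TP5M against 4033 to 8550 TP5M. M5463-3p, of miR3522, had 116 and 48.2 TP5M against 232 to 34200 TP5M, with no overlap and no call (log2 -4.45 ± 1.56, limma adjusted p = 0.108). In these lists the leaf values spanned wide ranges between stages.

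A list of families reported in phloem sap of other plants (miR156, miR159, miR162, miR167, miR168, miR395, miR398, miR399, miR408 and miR2111) was looked at as a description only. It had 2 of 76 tested sequences higher in stem and 4 lower, with a median log2 difference of -0.27. That is 7.89% of the list called in either direction, close to the 6.89% of all sequences tested. Its summed level was 179440 and 277669 TP5M in the stems and 106718 to 334169 TP5M in the leaves, with no separation. Most of the stem sums was miR159, with 155165 TP5M in the trefoil stem and 228607 TP5M in the germination stem. The list can therefore not gauge vascular content. How far the share of vascular tissue moves with the results above was not tested.

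At each of the stages with both organs, stem could be set against the new leaf of that stage, 1 library against 1 with no replicate. At germination, 92 sequences (15.5%) were at least 4-fold higher in stem on the log2(TP5M + 5) scale and 16 (2.69%) at least 4-fold lower. At the trefoil stage the counts were 45 (7.56%) and 35 (5.88%). The pairs were not scaled for the share of tags in the table, which differed between partners. At germination that share was 14.5% in the stem and 4.61% in the new leaf, the lowest of the leaves. At the trefoil stage it was 9.86% in the stem and 6.09% in the new leaf. How far this moved the counts was not tested. At both stages, 27 sequences (4.54%) were 4-fold higher, 10 (1.68%) were 4-fold lower and 3 (0.504%) changed in opposite directions. Of the sequences called over all libraries, which include these, 29 of 30 and 11 of 11 had the same sign at both stages, and 16 and 6 passed 4-fold at both. Across the 595 sequences the differences at the 2 stages had a Pearson r of 0.54 and a Spearman rho of 0.55. The points share libraries and some share reads, so this is a description of these 4 libraries.

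**Figure D5:**
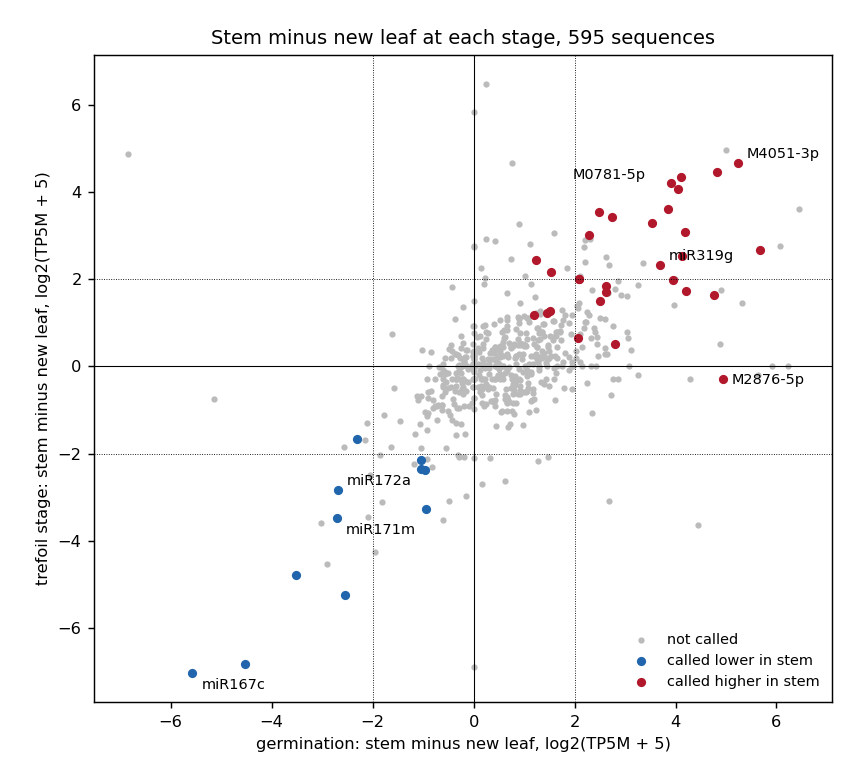
Stem minus new leaf on the log2(TP5M + 5) scale at germination (x axis) and at the trefoil stage (y axis) for 595 sequences, with called sequences in colour and dotted lines at 4-fold. Red points lie in the upper right and blue points in the lower left, apart from M2876-5p, which is raised only in the germination stem.

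Length and first base were not used to call sequences. Of the 30 higher in stem, 9 (30.0%) were 20 bases long, against 37 of 595 tested (6.22%). Of the 11 lower, 8 (72.7%) were 21 bases long, against 328 of 595 tested (55.1%). An A was the first base of 10 of the 30 higher sequences, against 105 of 595 tested. As shares of the summed signal, 20 base sequences took 6.77% and 8.68% in the germination and trefoil stem against 0.499% to 2.48% in the leaves. Sequences of 21 bases took 76.4% and 71.4% against 78.5% to 89.97%. Both differences had an exact permutation p of 0.0714 (two-sided), the smallest possible. The abundant 20 base miR319a made up most of that first share in the stems. It had 39125.5 and 39247.4 TP5M of a summed 724245 and 493230 TP5M in the germination and trefoil stem. The share was not computed without miR319a, so its difference is no result apart from that sequence. The shares of all lengths add up to the whole, so the lower 21 base share is no separate result either. The shares of 22 base and 24 base sequences overlapped between the organs (exact permutation p = 0.214 and 0.857).

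Both arms of a hairpin were tested for 121 pairs, and 10 of them had at least 1 called arm. In 4 of these pairs both arms were called, all higher in stem: M1663, M1889, M4039 and M6352. The log2 differences of the arms had the same sign in 9 of the 10, against 79 of all 121. The exception was miR166h, with 2.75 for the 3p and -0.52 for the 5p arm. Arms of 1 hairpin come from 1 transcript and are not independent.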

How the data were processed

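Small RNAs of 15 to 30 bases were sequenced from 23 soybean libraries on an Illumina instrument, per the labels' protocols. The deposited table holds 3933 entries, and the authors expressed their signal in tags per 5000000 (TP5M), per the file headers. The submitters' processing notes list BWA, without a version. On the build of the genome and on how reads were assigned, the sources used here give nothing, and coordinates are therefore those of the table. Columns were matched to libraries by the sample number that opens each title. Titles hold a second number, in brackets, by which columns and libraries would pair differently. As a check, libraries of an organ had a mean r of 0.833 by the sample number and 0.762 by the bracket number, and libraries of different organs 0.728 and 0.739. No column belonged to a sample outside the series.

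Entries with the same sequence were merged by their maximum, which left 2839 sequences. A family was given by name, by 18 shared bases or by hairpin overlap. Low values came out as whole reads (100.0% of 28838 values of up to 200 reads, within 0.1), which gave the total tags of each library. The 595 sequences averaging 5 TP5M or more over the 23 libraries were tested in limma 3.58.1 on log2(TP5M + 5). The model had a mean for each of 8 organs, variances were moderated with a trend, and p-values were adjusted after Benjamini-Hochberg (threshold 0.05). The shared spread comes from organs sampled over stages. This log2 scale understates differences of low sequences. A fold is the ratio of 2 mean levels in TP5M. Family sums were fitted the same way. Shares were compared by exact permutation over the 28 splits of 8 libraries. As alternatives, edgeR 4.0.16 and DESeq2 1.42.0 (in R 4.3.3) were run on the recovered reads. Tables and figures used pandas 2.3.3, scipy 1.17.1 and matplotlib 3.10.9. On simulated data with 200 of 595 sequences changed, the limma fit of stem minus leaf recovered 8.5% of those changed 2-fold, 53.9% at 4-fold and 86.8% at 8-fold, and 7.9% of its calls were false. The simulated errors were independent between sequences, and far more sequences were changed than were called in the data. These rates therefore need not hold for the calls given here.

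Sequences were named by rule: the largest called difference of each family in each direction, the most abundant sequences, the top 2 of each list and further sequences with no overlap where fewer than 6 were called. Other family members and arms were picked after their values were seen. The comparison and the lists of families were chosen with earlier results of these data known.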

Additional observations from a re-analysis of the deposited data

Results flagged for a closer look

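Among the 6 leaf libraries, 8 of 47 results had 1 library far from the others by Dixon's test, in which the gap to the nearest library is divided by the whole range. Chance gives this in about 1 of 20 groups. The senescent leaf was low in 4 of them. M4051-3p had 5.15 TP5M there against 302 to 947 TP5M in the other leaves (a gap of 0.751 of the range on the log2 scale), and miR319a had 69.0 TP5M against 1109 to 4616 TP5M (0.656). In the same leaf miR169a had 6.18 TP5M against 1137 to 4692 TP5M (0.766), and miR169s had 15.4 TP5M against 446 to 1287 TP5M (0.746).

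Without the senescent leaf, M4051-3p and miR319a were still called higher in stem. The new trefoil leaf had 7.72 TP5M of miR396h where the other leaves had 0 (1.00 of the range), and 0 TP5M of miR156a where the others had 866 to 8443 TP5M (0.694). The old trefoil leaf had 61.3 TP5M of miR166m where the others had 0 (1.00). The old leaf of flower bud differentiation had 2356 TP5M of M2670-3p against 187 to 443 TP5M (0.662).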

How the results depend on the processing

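All 41 called sequences kept the sign of their difference under every alternative in which they were present, but the counts depended on the fit. With a pseudocount of 1, 19 were higher. With no filter, 7 were lower. With the 8 stem and leaf libraries alone, 5 were higher and 4 lower. With the 5 libraries of germination and the trefoil stage and a stage term, 0 were higher and 0 lower, with 66 at an unadjusted p below 0.05. A term for the 6 libraries that share 28 sequences left 4 lower. DESeq2 called 27 higher and 96 lower. TMM scaling gave 29 higher and 15 lower, and edgeR 24 and 9. Leaving out 1 library gave 10 to 34 higher and 3 to 16 lower, lowest in both directions without the germination stem. miR394b-3p, M1889-3p, miR1523a, miR167c and miR167g were called in every fit but the one with the stage term.

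Of the family sums, 4 were higher with a pseudocount of 1, 5 lower with TMM scaling, 2 higher and 1 lower with 8 libraries, 0 and 0 with the stage term (20 at an unadjusted p below 0.05), 12 higher with leaves of germination and the trefoil stage only, 1 lower with the term for the 6 libraries, and 12 higher and 1 lower without the 3 leaves of that set. Leaving out 1 library gave 3 to 10 higher and 1 to 3 lower. Called sequences in the phase change, auxin, meristem, defence and phloem sap lists came to 0 with the stage term. edgeR gave 1 in the growth MYB list, 2 in the defence list and 1 in the other legume list, and TMM scaling gave 1 in the last. The stem minus leaf difference in the 24 base share ran from -0.0256 to 0.00955 percentage points as 1 library was left out. The cause of these shifts was not tested, beyond fewer libraries in some fits.

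No paired analysis was possible because the labels give no replicate numbers shared between stem and leaf. The stage, which pairs stem and leaf at germination and at the trefoil stage, entered only as the stage term above. The settings on the 6 libraries, and the one without sequences listed at 0 beside high values (29 higher, 13 lower), were chosen after seeing the data. Sequences under about 3 reads cannot be told from 0, and 2 stem libraries limit every call.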

Other observations

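In 28 of the 595 tested sequences, at least 1 library was listed at 0 while no value above 0 was under 10 reads. miR319d, miR319f, miR156a and miR166m are among them, and 1 of the 28 (miR166m) was called. Of the tested sequences, 7 pairs were reverse complements with the same value in every library, so each pair is 1 measurement given on both strands. The pair M0151-3p and M0408-5p was called higher in stem.

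In old leaves and the senescent leaf, M5463-3p of miR3522 reached 11806 TP5M (old leaf, trefoil stage), 4358 TP5M (old leaf, flower bud differentiation) and 34200 TP5M (senescent leaf). The new leaves at those stages and at germination had 232 to 270 TP5M, and the stems 116 and 48.2 TP5M. These values were picked after they were seen, and leaf ages were not compared by a test.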
